A study of Mus musculus with 2 samples.

Results

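The miR-29 family was described here from microRNA sequencing of the midbrain of newborn mice. Its 4 hairpin genes, Mir29a, Mir29b-1, Mir29b-2 and Mir29c, were taken by symbol from the 1973 microRNA genes of the count tables. No threshold on their values was used, but earlier results of these data were known when they were chosen. The data came from 2 libraries, made for the ENCODE project and labelled pup 1 and pup 3. Both were midbrain of B6NCrl mice, an inbred C57BL/6N strain, on postnatal day 0. No mutation or treatment was named in the labels, there was 1 group, and sex was not recorded. The labels named separate pups but carried the same donor identifier, so the spread between the libraries may be technical.

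A microRNA is cut out of a hairpin RNA, and 1 arm of the hairpin is usually the stable, active strand. The bases near its 5′ end, the seed, pair with target mRNAs and so lower their stability and translation. In the miR-29 family the active strand is the 3p arm. In the brain, miR-29 is known for rising levels as neurons and glia mature after birth, and for restraining pro-apoptotic BH3-only genes in neurons, the DNA methyltransferase Dnmt3a, and collagens in many tissues.

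The mature sequences are shown first because the counting depends on them. They were read from RefSeq (GRCm38.p6), where all 4 members matched by symbol, and are written 5′ to 3′ with the seed, bases 2 to 8, in capitals. The same 3p sequence stands in both miR-29b hairpins.
miR-29a-3p (Mir29a): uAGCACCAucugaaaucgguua
miR-29b-3p (Mir29b-1 and Mir29b-2): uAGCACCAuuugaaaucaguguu
miR-29c-3p (Mir29c): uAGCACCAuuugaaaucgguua
miR-29a-5p (Mir29a): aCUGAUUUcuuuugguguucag
miR-29b-1-5p (Mir29b-1): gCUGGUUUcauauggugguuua
miR-29b-2-5p (Mir29b-2): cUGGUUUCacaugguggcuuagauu
miR-29c-5p (Mir29c): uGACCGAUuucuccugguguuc

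The seed AGCACCA was shared by all 3 distinct 3p sequences, and no mature sequence outside the family carried it in the RefSeq table. Positions below are counted from 1 at the 5′ end. From miR-29c-3p to miR-29a-3p there was 1 substitution, U10C, so the first 9 bases were common. From miR-29c-3p to miR-29b-3p there were 3 substitutions, G18A, U21G and A22U, and miR-29b-3p was 23 rather than 22 bases long. The miR-29c and miR-29b strands were therefore identical over their first 17 bases. The 5p arms, which are usually the degraded strand, had 4 different seeds, and the longest run common to any pair of them was 9 bases (miR-29b-1-5p and miR-29b-2-5p).

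Each mature sequence was searched for among 2202 annotated mouse hairpins. miR-29b-3p occurred in 2 of them, Mir29b-1 and Mir29b-2, and each of the other 6 mature sequences in 1. The same counts held for the first 18 bases. With 1 mismatch allowed, miR-29a-3p and miR-29c-3p each occurred in 2 hairpins, Mir29a and Mir29c. The Mir29c hairpin shared a run of 22 bases with Mir29b-1 and of 19 with Mir29b-2. Whether short reads from these runs were left out of its count was not tested. The longest run shared by the miR-29b hairpins spanned the whole 3p strand:
Mir29b-1 and Mir29b-2: ucuagcaccauuugaaaucaguguu
The deposited tables put reads that map to several places in a row that names no gene. Its share was 38.7% in pup 1 and 39.8% in pup 3. The count of a miR-29b hairpin is thus a count of reads placed at a single locus. The amount of mature miR-29b cannot be read from it. The tables also count whole hairpins, so the 3p and 5p arms were not separated.

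The family lies in 2 close pairs of hairpins, given here with mm10 (GRCm38) coordinates from GENCODE M21. On chromosome 6, minus strand, Mir29b-1 (ENSMUSG00000065604.1 in the tables) spans bases 31063023 to 31063093. Mir29a (ENSMUSG00000065610.1) follows it downstream at 31062660 to 31062747, after a gap of 275 bases. The lincRNA Gm27019 overlaps Mir29b-1 by 2 bases on the same strand, and Mir29a overlaps no other annotated gene. On chromosome 1, plus strand, Mir29b-2 (ENSMUSG00000065412.2) spans 195037040 to 195037120. Mir29c (ENSMUSG00000065548.1) follows it downstream at 195037547 to 195037634, after a gap of 426 bases. Both lie within an exon of the noncoding transcript A330023F24Rik-204, at 195033823 to 195037904. On the opposite strand they lie in a UTR exon of Cd46-203, which encodes a complement regulator. The identifier versions of the miR-29b genes differ between the tables and GENCODE M21, so the counted intervals of these genes may differ slightly from those given.

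**Figure D1:**
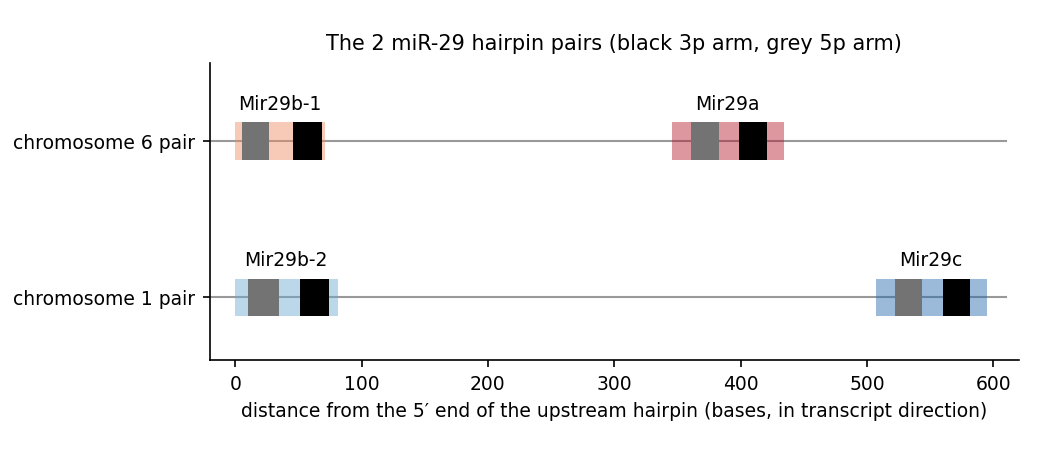
Map of the miR-29 pairs, with the distance in bases from the 5′ end of the upstream hairpin on the horizontal axis, hairpins as coloured boxes to scale, and their 5p (grey) and 3p (black) mature sequences. In both pairs the miR-29b hairpin lies upstream, 275 bases from Mir29a and 426 bases from Mir29c.

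The libraries held 2337113 (pup 1) and 3195277 (pup 3) reads on the own strand of microRNA genes, which is 42.8% and 43.3% of all reads in the tables. Levels are given as CPM, the count of a gene divided by this total and multiplied by 1000000. A count of 0 allows a level of up to 3 counts, which equals 1.28 CPM in pup 1 and 0.939 CPM in pup 3. Of the 1973 genes, 359 had at least 10 counts in each library and are called detected. All 4 members were among them. The median level over all detected genes was 225 CPM. The intervals below are exact 95% Poisson intervals that cover counting error only, since reads were not independent molecules.

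Mir29a and Mir29c carried nearly all of the family's singly placed counts. Mir29a had 1224 counts in pup 1 and 2163 in pup 3. These were 524 CPM (95% interval 495 to 554) and 677 CPM (649 to 706), a mean of 600.3 ± 108 (SD, n = 2). Pup 3 was the higher, and the intervals of the pups did not overlap. Mir29a held place 125 among the 1973 genes by mean CPM.

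Mir29c, the downstream hairpin on chromosome 1, had 1009 counts in pup 1 and 1622 in pup 3. These were 432 CPM (405 to 459) and 508 CPM (483 to 533), a mean of 469.7 ± 53.7 (SD, n = 2), at place 145. Again pup 3 was the higher, and Mir29c lay below Mir29a within each pup. The lower Mir29a value (524 CPM, pup 1) lay just above the higher Mir29c value (508 CPM, pup 3).

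The singly placed counts of the miR-29b hairpins, which leave out reads that map to both, were close to the limit of detection. Mir29b-1 had 21 counts in pup 1 and 37 in pup 3, or 8.99 CPM (5.56 to 13.7) and 11.6 CPM (8.15 to 16.0), with a mean of 10.3 ± 1.83 (SD, n = 2) at place 313. Mir29b-2 had 20 and 23 counts, or 8.56 CPM (5.23 to 13.2) and 7.20 CPM (4.56 to 10.8), with a mean of 7.88 ± 0.961 (SD, n = 2) at place 331. Their intervals overlapped in each pup. None of the 4 hairpins had a count on the opposite strand in either pup. Reads of the Cd46 strand were therefore not seen over the chromosome 1 pair.

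**Figure D2:**
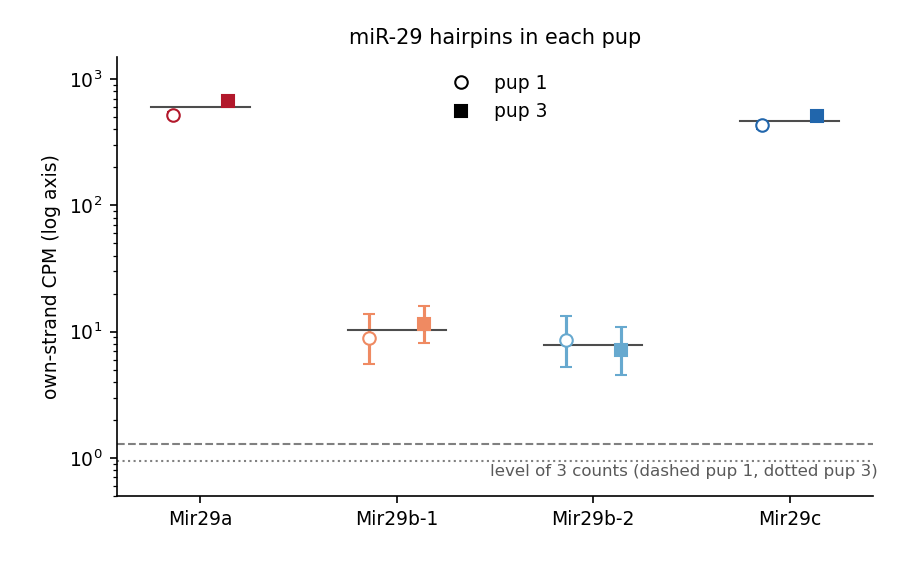
Level of each miR-29 hairpin in each pup in CPM on a log axis, with exact 95% Poisson intervals as bars. Mir29a and Mir29c lie between 432 and 677 CPM and the miR-29b hairpins between 7.20 and 11.6 CPM.

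Per hairpin base the order was the same. The mean level was 6.82 CPM per base for Mir29a (88 bases), 5.34 for Mir29c (88 bases), 0.145 for Mir29b-1 (71 bases) and 0.0973 for Mir29b-2 (81 bases). Between Mir29a and Mir29c, of equal length, the ratio was 1.21 in pup 1 (1.12 to 1.32) and 1.33 in pup 3 (1.25 to 1.42), above 1 beyond counting error in both. Between Mir29b-1 and Mir29b-2 the ratio of counts was 1.05 in pup 1 (0.542 to 2.04) and 1.61 in pup 3 (0.931 to 2.84), and neither interval excluded equal counts. Per base this ratio was 1.20 (0.618 to 2.33) and 1.84 (1.06 to 3.24), so only in pup 3 and per base did it exceed 1 beyond counting error. Division by length assumes that counts grow with hairpin length, which was not tested. The order of these 2 hairpins was not resolved by their few singly placed counts, which leave out reads that map to both.

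The family sum, over the 4 hairpins that carry the seed AGCACCA in the RefSeq table, was 2274 singly placed counts in pup 1 and 3845 in pup 3. It made up 0.0973% (exact Clopper-Pearson 95% interval 0.0933 to 0.101) and 0.120% (0.117 to 0.124) of the own-strand counts. Mir29a and Mir29c together held 98.2% (97.6 to 98.7) and 98.4% (98.0 to 98.8) of the family's counts. The miR-29b hairpins held the other 1.80% (1.30 to 2.44) and 1.56% (1.19 to 2.00). These are shares of reads placed at a single locus, since multiply mapped reads are in no gene. The whole miR-29b-3p strand stands in both miR-29b hairpins, so a read that maps to both is left out. The share of mature miR-29b in the family therefore cannot be read from them. By locus, the chromosome 6 pair held 54.7% (52.7 to 56.8) of the singly placed counts in pup 1 and 57.2% (55.6 to 58.8) in pup 3. Both loci thus had singly placed reads, with somewhat more on chromosome 6. Which locus gave more of the whole family cannot be read from these counts, since reads that map to both miR-29b hairpins are left out.

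**Figure D3:**
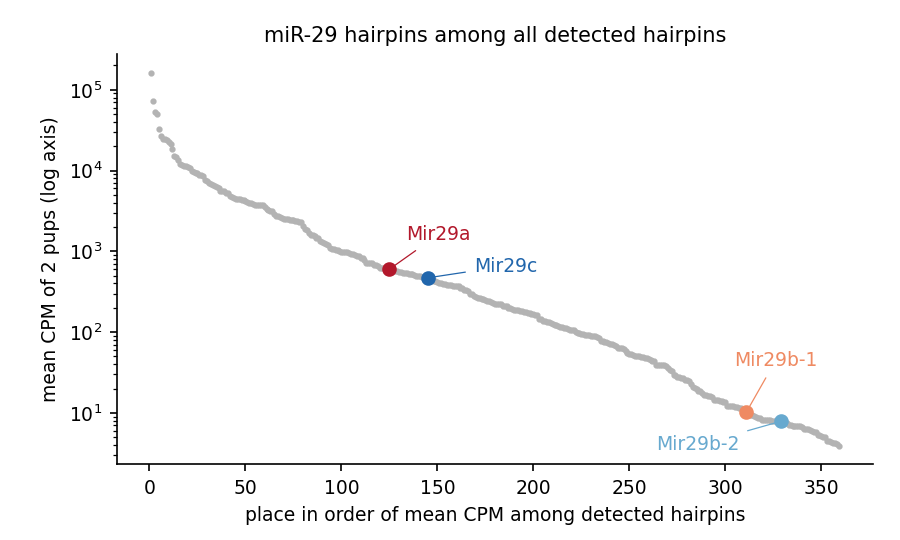
Mean CPM of the 359 detected hairpins on a log axis, in descending order, with the miR-29 hairpins marked. Mir29a and Mir29c stand at places 125 and 145 of the detected hairpins, above the median of 225 CPM, and Mir29b-1 and Mir29b-2 at places 311 and 329.

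Within each pair the downstream hairpin greatly exceeded its upstream miR-29b neighbour in singly placed counts, which leave out reads that map to both miR-29b hairpins. Mir29a had 58.3 times the counts of Mir29b-1 in pup 1 (38.0 to 94.5) and 58.5 times in pup 3 (42.3 to 83.3). Mir29c had 50.5 times the counts of Mir29b-2 in pup 1 (32.5 to 83.0) and 70.5 times in pup 3 (46.8 to 112). Per hairpin base the folds of the first pair were 47.0 and 47.2, and those of the second 46.4 and 64.9. The imbalance was thus of like size at both loci, with overlapping counting intervals.

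These ratios were also compared between the pups by Fisher's exact test (two-sided), with p-values adjusted over 3 ratios that were chosen after their values were seen. The log2 ratio of Mir29a to Mir29b-1 differed by 0.02 between the pups (adjusted p = 1, Fisher's exact test). That of Mir29c to Mir29b-2 differed by 0.49 (adjusted p = 0.411, Fisher's exact test), and that of Mir29a to Mir29c by 0.14 (adjusted p = 0.241, Fisher's exact test). None passed the threshold of 0.05. With 20 to 37 counts on the miR-29b hairpins, the depth limits what such a test can show.

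Other close hairpins give these folds a scale. Over the series, 118 pairs of neighbouring hairpins lay within 10 kb on the same strand and had at least 100 counts on the larger member in each library. Their median fold, larger over smaller with 0.5 added to each count, was 19.95 (quartiles 3.21 and 322). In descending order Mir29c over Mir29b-2 (58.3-fold) held place 42 and Mir29a over Mir29b-1 (57.3-fold) place 43, above the median and inside the quartiles. In 20 of the 118 pairs the smaller member had 0 counts in both pups, and their folds depend on the added 0.5.

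The pairs were also grouped by the sequence fact described for miR-29b. In 19 pairs 1 hairpin was classed as having a mature sequence that also stands in another hairpin and its neighbour was not. The hairpin with the repeated sequence was the smaller one in 18 of the 19 pairs (94.7%), both miR-29 pairs included. Per hairpin base, a comparison added after seeing the data, it was the smaller in 17 of 19 (89.5%). Pairs of the same kind, chosen after their values were seen, were Mir20a over Mir19b-1 (331-fold), Mir30e over Mir30c-1 (345-fold) and Mirlet7d over Mirlet7a-1 (25.9-fold). Others were nearly equal, among them Mir15a over Mir16-1 (1.35-fold) and Mir98 over Mirlet7f-2 (1.27-fold). The folds of the 18 pairs ran from 1.21 (Mir27a over Mir24-2) to 3056 (Mir431 over Mir3070b). The exception among the 19 pairs was Mir194-2, whose mature sequence is repeated but which was the larger hairpin. It had 319 counts in pup 1 and 430 in pup 3, against 323 and 305 for its neighbour Mir192. The classes may miss some repeats: Mirlet7a-1 was classed as repeated but Mirlet7a-2, another let-7a copy, was not. The pair of Mir100 over Mirlet7a-2 (90.4-fold) thus stands outside the 19. Copies of 1 microRNA, such as Mir16-1 and Mir16-2, were counted in separate pairs, so the 19 pairs are not independent. Over all genes the classes differed the other way. Of the 102 genes with a repeated mature sequence 43.1% were detected, at a median of 341 CPM. Of the 814 classed as having none repeated 34.9% were detected, at a median of 227 CPM. The part that the row of multiply mapped reads has in the folds of the pairs was not tested.

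**Figure D4:**
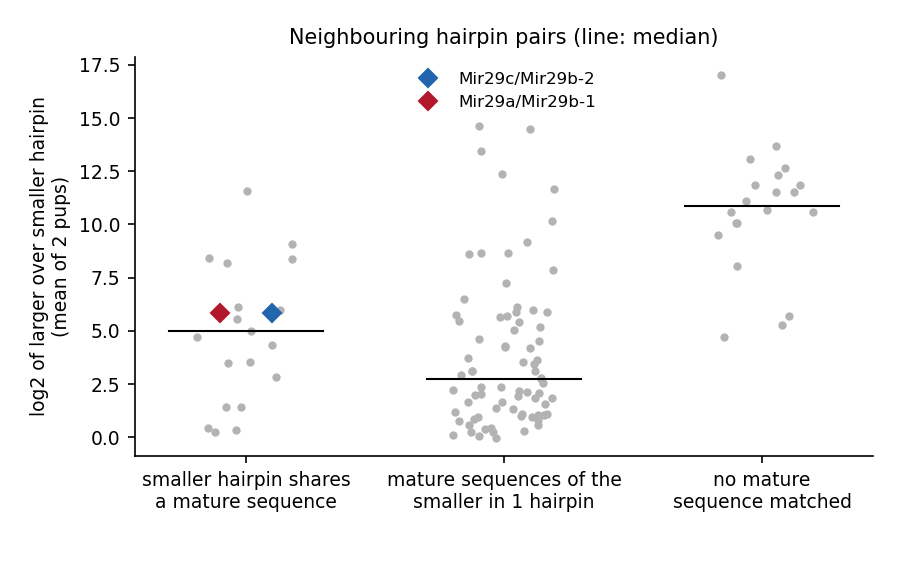
Log2 of the larger over the smaller hairpin in 118 neighbouring pairs (mean of 2 pups), grouped by whether a mature sequence of the smaller hairpin stands in another hairpin, with the group's median as a line. Both miR-29 pairs lie in the first group, above its median of 31.5-fold. The median was 6.81-fold where the smaller hairpin's sequences were classed as standing in 1 hairpin, Mirlet7a-2 among them. The third group holds 20 pairs whose smaller hairpin had no matched mature sequence, many with larger folds.

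The libraries of the pups were compared next. With 1 library per pup there is no replicate check, so a test on their reads compares these libraries and not a condition. In bulk tissue, fewer cells of a type and less RNA per cell cannot be told apart. Folds are pup 3 over pup 1 after TMM scaling, a normalization that trims extreme genes, and calls are Fisher's exact tests on the unscaled library totals, adjusted by Benjamini-Hochberg over the 359 detected genes. The test was repeated on TMM-scaled totals, an alternative chosen after seeing the data, which match the printed folds.

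Mir29a was 1.25-fold higher in pup 3 (95% counting interval 1.16 to 1.34, log2 0.32, adjusted p = 2.29e-12, Fisher's exact test). Mir29c was 1.14-fold higher (1.05 to 1.23, log2 0.18, adjusted p = 1.62e-04, Fisher's exact test). Mir29b-1 had a fold of 1.24 (0.710 to 2.24, adjusted p = 0.564) and Mir29b-2 of 0.817 (0.427 to 1.56, adjusted p = 0.756), both by the exact test and neither past the threshold. On TMM-scaled totals the adjusted p of Fisher's exact test was 1.89e-09 for Mir29a and 0.00390 for Mir29c, and the miR-29b hairpins again did not pass. The family sum had a fold of 1.20 (1.13 to 1.26), higher in pup 3.

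Calls like these were common among the genes. The miR-29b hairpins, with 20 to 37 counts, had little depth for a call. Of the 359 detected genes 45.1% were called at any fold, against 2 of the 4 members. Higher in pup 3 were 27.3% of the genes, against the same 2 members, and lower were 17.8%, against 0 members. At a fold of at least 2, 2.23% were called, against 0 members. On TMM-scaled totals 45.7% were called, 24.2% higher and 21.4% lower, with the same 2 members called. The median log2 ratio was 0.25 over the members and 0.01 over all detected genes (quartiles -0.21 and 0.16). A higher ratio than that of Mir29a was seen in 35 genes (9.75%), and than that of Mir29c in 70 (19.5%). Both ratios thus lay above the upper quartile.

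**Figure D5:**
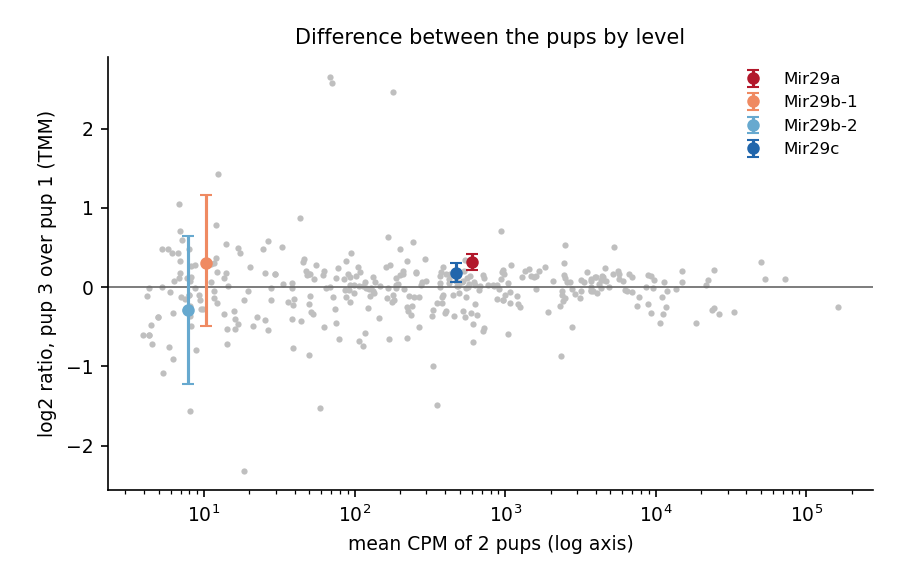
TMM-scaled log2 ratio, pup 3 over pup 1, against mean CPM (log axis) for the 359 detected genes, with the miR-29 hairpins marked with 95% counting intervals. Mir29a (0.32) and Mir29c (0.18) lie above zero with their intervals, while the intervals of both miR-29b hairpins cross it.

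Markers of other cell types were set beside this difference. The epithelial markers of the miR-200 family (5 of 5 counted, 3 detected) had a summed level of 94.99 CPM in pup 1 against 594 CPM in pup 3. This is a 6.25-fold difference. The median log2 ratio of the 3 detected genes was 2.58, against 0.01 over all detected genes. Red cell markers (3 of 3 detected) summed to 125 and 74.2 CPM, in which Mir451a stood at 86.4 in pup 1 and 31.0 CPM in pup 3, and Mir144 stood at 20.1 and 29.1 CPM. The endothelial marker Mir126a stood at 36188 and 30095 CPM, and mural markers (4 of 5 detected) at 7465 and 7337 CPM. Microglial and leukocyte markers (4 of 4 detected) summed to 668 and 597 CPM, and oligodendrocyte markers (3 of 3 detected) to 1656 and 1549 CPM. The median log2 ratio was -0.40 over the detected red cell markers, -0.32 for Mir126a and -0.08 over the mural markers. It was -0.25 over the microglial and leukocyte markers and -0.16 over the oligodendrocyte markers. The part of these differences in the higher Mir29a and Mir29c of pup 3 was not tested. As a check of the brain label, 3 of the 6 counted neuronal markers were detected. Mir137 stood at 22082 and 26512 CPM, Mir9-3 at 396 and 382 CPM and Mir124a-1 at 11.6 CPM in each pup. The 6 summed to 22495 and 26913 CPM. Mir137 was called higher in pup 3 (log2 ratio 0.21), while Mir9-3 (-0.10) and Mir124a-1 (-0.05) were not called. The part of this difference in the higher Mir29a and Mir29c was not tested either. The other neuronal copies, Mir9-2, Mir124a-2 and Mir124a-3, were at 4.38 CPM or less in singly placed counts. Mir9-2 and Mir9-3 have a mature sequence that stands in more than 1 hairpin, as does miR-29b. The amount of mature miR-9 therefore cannot be read from their counts. The Mir124a genes had no matched mature sequence, so whether theirs is repeated was not tested. Their low counts are thus not a measure of mature miR-124. Of 4 striated muscle genes, Mir1a-1, Mir133a-1 and Mir133a-2 were at 0 in both pups and Mir206 at 19.7 CPM in each. Liver Mir122 stood at 58.6 and 47.9 CPM.

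Among microRNAs known for higher levels in the mature brain, 10 of 12 were detected, with a median of 920 CPM over those 10, and 7 exceeded Mir29a. The highest were the copies of neuronal miR-128, Mir128-1 at 7698 ± 263 CPM and Mir128-2 at 2498 ± 110 CPM (SD, n = 2). Where Mir29a and Mir29c were called higher in pup 3, 0 of 10 tested genes of this list were, and 5 were called lower (6 on TMM-scaled totals), against 27.3% higher and 17.8% lower over all detected genes. Their median log2 ratio was -0.13. Among those lower were both copies of miR-128. Of the 9 genes of the list with a matched mature sequence, 6 have one that stands in more than 1 hairpin. The 3 Mir124a genes had no match, so this count leaves them out.

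Of the miR-17-92 cluster of dividing progenitors 6 of 6 counted genes were detected, with a median of 1541 CPM, and 4 exceeded Mir29a. Its highest members were Mir17 at 8870 ± 894 CPM and Mir20a at 3196 ± 216 CPM (SD, n = 2). Of its 6 tested genes 3 were called higher in pup 3, as were Mir29a and Mir29c, and 1 lower, against the same 27.3% and 17.8% over all detected genes. Of microRNAs abundant in cultured astrocytes 8 of 8 counted genes were detected, with a median of 527 CPM, and 4 exceeded Mir29a. Mir26b, at 14890 ± 1848 CPM, and Mir23b, at 10985 ± 394 CPM (SD, n = 2), were the highest, and 2 of 8 were called higher in pup 3, near the share over all detected genes, and 1 lower (2 on TMM-scaled totals). The levels of Mir29a and Mir29c thus fell within the range of each of these lists.

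The genes whose levels were most like those of each member were found by distance on log2(CPM + 1) over the 2 libraries, which is a description of level only. Nearest to Mir29a were Mir203 (550 CPM in pup 1 and 625 in pup 3), Mir665 (524 and 589) and Mir1193 (470 and 619). Nearest to Mir29c were Mir672 (452 and 516), Mir222 (452 and 495) and Mir16-2 (469 and 491). Mir29b-1 had its nearest neighbours in Mir302c (9.84 and 12.5), Mir466n (10.7 and 11.6) and Mir504 (10.3 and 13.1). Mir29b-2 lay nearest to Mir1197 (8.56 and 7.51), Mir7080 (8.99 and 7.20) and Mir181b-1 (8.13 and 6.89). Of these, Mir16-2 and Mir181b-1 belong to microRNAs encoded at more than 1 locus, as does miR-29b.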

How the data were processed

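The authors deposited, for each library, a table of raw read counts per microRNA gene (GENCODE M4 on mm10, per the labels and deposited descriptions) on either strand, the own strand and the opposite strand, with 4 rows that name no gene. These rows held 57.2% and 56.7% of the reads and stayed out of library sizes and tests. Aligner and counter: not given in the sources used here. Own-strand counts were used. CPM, exact Poisson and Clopper-Pearson intervals and Fisher's exact tests were computed with scipy 1.17.1, TMM factors with edgeR 4.0.16 and size factors with DESeq2 1.42.0 in R 4.3.3; no edgeR or DESeq2 test was run. Library ratios used a prior count of 0.5. The test was run on simulated data that held counting error only, so this check does not cover other spread between libraries. Gene symbols matched for 1894 of 1973 identifiers. The text names the 4 members, the 3 genes nearest in level to each, the 2 most abundant of each list and, after their values were seen, the neighbouring pairs and markers given. The members and lists were chosen with earlier results of these data known.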

Additional observations from a re-analysis of the deposited data

How the results depend on the processing

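Without Mir99a, the most abundant gene, the levels were 716 CPM for Mir29a, 12.3 for Mir29b-1, 9.42 for Mir29b-2 and 560.5 for Mir29c, and the family share was 0.130%. Over all reads, rows that name no gene included, they were 259, 4.43, 3.39 and 202 CPM, and the share was 0.0469%. Leaving out hairpins with a run of 20 bases in common with another removed all members but Mir29a and gave a share of 0.0696%. Mir29c was removed because it shares a run of 22 bases with Mir29b-1. With 1 pup left out, Mir29a ranged from 524 to 677 CPM, Mir29b-1 from 8.99 to 11.6, Mir29b-2 from 7.20 to 8.56, Mir29c from 432 to 508 and the share from 0.0973% to 0.120%. The log2 ratios then ranged from 5.83 to 5.85 (Mir29a over Mir29b-1), 5.62 to 6.11 (Mir29c over Mir29b-2) and 0.28 to 0.42 (Mir29a over Mir29c). With no pseudocount the first was 5.87. Genes at least 2-fold different numbered 8, and 5 with a mean count of at least 50, where fewer genes were tested. With TMM-scaled totals in Fisher's exact test, chosen after seeing the data, the adjusted p was 1.89e-09 for Mir29a and 0.00390 for Mir29c, and no member changed its call. Among neighbours within 1 kb, the median fold was 15.4 where the smaller hairpin was classed as repeating a mature sequence. It was 8.77 where the smaller hairpin was classed as not doing so (31.5 and 6.81 within 10 kb). With at least 1000 counts on the larger hairpin these medians were 58.3 and 9.77. The remaining alternatives changed no direction or call of a member. A whole-genome search for copies of the mature sequences was not run. No paired analysis was possible because there is 1 group.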
